A study of Mus musculus with 21 samples.

Results

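The genes described here are 38 genes that respond to low oxygen or carry out glycolysis, taken by symbol from a fixed list. All 38 are among the 19241 genes listed in the 2 tumour tables. In the tables of hematopoietic stem cells (HSC), 37 were listed in the one that holds sedentary and active mice and 38 in the one that holds active and transplanted mice. The list holds 2 glucose transporters, 15 glycolytic enzymes, 4 regulators of glycolytic flux, 16 other hypoxia targets and the oxygen-regulated subunit of the hypoxia-inducible factor (HIF), Hif1a.

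When oxygen is plentiful, prolyl hydroxylases of the Egln family mark the HIF alpha subunits, and the von Hippel-Lindau protein then has them degraded. When oxygen is scarce the subunits persist, pair with Arnt and bind a short motif in the promoters and enhancers of their targets. These targets bring in and burn glucose, export lactate, recruit blood vessels and remodel mitochondria and collagen. Growing tumours outrun their blood supply and are a classical setting of this response, and stem cells of the bone marrow are known for their reliance on glycolysis. Hif1a itself is regulated mainly through the stability of its protein, so its transcript is a poor guide to its activity.

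RNA-seq was made from mammary tumours and from sorted HSC of mice that all carried MMTV-PyMT, a transgene in which a mammary tumour virus promoter drives the polyoma middle T antigen in mammary epithelium. The tumour groups were sedentary mice at week 12, physically active mice at week 12, sedentary mice at week 18 and physically active mice at week 18, with 3 tumours each. The HSC groups were sedentary mice at week 12, physically active mice at week 12, and sedentary mice at week 14 that had been transplanted with cells from a physically active mouse, with 3 libraries each. No group lacks the transgene. Transplantation and week differ together in the transplant group. The labels call the samples biological replicates without saying which animal each came from, so p-values measure the spread between these samples. In bulk RNA, fewer cells of a type and less RNA per cell cannot be told apart.

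Promoters of some of the genes that stood apart without overlap in week 18 tumours are shown first. They were picked by hand, and each holds the short motif bound by HIF. Gpi1 and Tpi1 also stood apart without overlap at week 18, but their promoters held no match and are not shown. The sequences are the 250 bases before the RefSeq start site, 5′ to 3′ on the strand of the gene, in build GRCm38.p6. Capitals mark ACGTG or GCGTG on the printed strand and their reverse complements, CACGT or CACGC, for a match on the other strand. Slc16a3, which exports lactate, is at chr11:120948817-120949066 (plus strand). Pgk1, which makes the first ATP of glycolysis, is at chrX:106186850-106187099 (plus strand). Hk2, the inducible hexokinase, is at chr6:82774455-82774704 (minus strand). Pgam1, a phosphoglycerate mutase, is at chr19:41911621-41911870 (plus strand). The 30 bases after this start were not found in a GENCODE transcript of Pgam1. Gapdh, glyceraldehyde-3-phosphate dehydrogenase, is at chr6:125165774-125166023 (minus strand). Ankrd37, an ankyrin repeat protein induced by HIF, is at chr8:45999851-46000100 (minus strand).
Slc16a3: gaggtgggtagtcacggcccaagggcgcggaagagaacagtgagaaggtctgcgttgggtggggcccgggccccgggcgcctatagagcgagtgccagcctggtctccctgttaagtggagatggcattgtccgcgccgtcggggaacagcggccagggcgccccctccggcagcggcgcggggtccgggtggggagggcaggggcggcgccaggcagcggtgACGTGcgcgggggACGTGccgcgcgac
Pgk1: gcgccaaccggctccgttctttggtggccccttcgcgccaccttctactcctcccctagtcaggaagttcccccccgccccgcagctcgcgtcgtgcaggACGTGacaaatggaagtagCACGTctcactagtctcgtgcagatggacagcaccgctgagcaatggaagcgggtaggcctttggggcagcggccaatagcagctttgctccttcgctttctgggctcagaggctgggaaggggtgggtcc
Hk2: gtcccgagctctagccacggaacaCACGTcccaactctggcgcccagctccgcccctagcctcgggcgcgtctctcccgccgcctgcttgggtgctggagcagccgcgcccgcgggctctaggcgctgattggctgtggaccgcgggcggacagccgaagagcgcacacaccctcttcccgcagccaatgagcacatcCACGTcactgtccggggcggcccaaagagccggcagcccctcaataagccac
Pgam1: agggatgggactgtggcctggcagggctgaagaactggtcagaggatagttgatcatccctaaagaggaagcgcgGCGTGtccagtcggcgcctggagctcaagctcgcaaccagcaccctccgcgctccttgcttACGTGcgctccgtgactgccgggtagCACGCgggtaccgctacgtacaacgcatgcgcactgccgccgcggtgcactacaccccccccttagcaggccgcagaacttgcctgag
Gapdh: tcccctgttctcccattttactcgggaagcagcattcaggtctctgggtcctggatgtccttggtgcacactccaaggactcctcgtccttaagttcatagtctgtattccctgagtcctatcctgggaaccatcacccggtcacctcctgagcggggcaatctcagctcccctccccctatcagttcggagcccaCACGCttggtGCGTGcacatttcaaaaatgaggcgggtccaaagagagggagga
Ankrd37: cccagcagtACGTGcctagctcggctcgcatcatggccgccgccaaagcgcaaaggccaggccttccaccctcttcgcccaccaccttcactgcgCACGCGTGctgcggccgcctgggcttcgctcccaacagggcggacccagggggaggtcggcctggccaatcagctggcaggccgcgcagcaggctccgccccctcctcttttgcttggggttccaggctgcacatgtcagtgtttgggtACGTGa
The promoter of Slc16a3 held 2 ACGTG matches, starting 27 and 14 bases before the start site. The promoter of Ankrd37 held 4 matches, 2 of them ACGTG, and its 2 GCGTG matches overlap on opposite strands. Gapdh held 2 matches, both GCGTG, 54 and 44 bases before its start.

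RefSeq promoters were at hand for 35 of the 38 genes, and Slc2a3, Bnip3l and Ndrg1 had none in the table. Searched on both strands with overlaps counted, 32 of the 35 genes (91.4%) had ACGTG or GCGTG in the 250 bases. The same holds for 56.7% of the 13225 tumour-table genes with a promoter and for 41.5% of all 27025 genes in the table. ACGTG alone was present in 20 of 35 (57.1%), beside 23.4% of tumour-table genes. Member promoters were also richer in G and C, with a median of 62.8% against 58.4%. Among tumour-table genes within 5 percentage points of that median, 62.9% had either motif and 24.9% had ACGTG. Genes with several promoters have more chances of a match. Counted per promoter, 78.0% of the 50 member promoters held a motif, beside 51.3% of those of tumour-table genes and 61.2% of those of like base composition. By gene, 14 of 14 other hypoxia targets and 12 of 15 glycolytic enzymes had a match, and 10 of 14 and 6 of 15 had ACGTG. By promoter the shares with either motif were 78.9% and 73.9%. The 3 genes without a match were Gpi1, Tpi1 and Eno2. A match in this window describes the letters only and is not evidence of a bound site.

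The tumour libraries held 20838963 to 28973775 reads in genes. Replicate 3 of each HSC group was deeper, with 58500940 to 72417315 reads against 16406889 to 24574563 in the others. All 8 markers of mammary epithelium were listed in the tumour tables, with summed values of 60874.6 to 148195 per tumour. All 10 HSC markers were listed in both HSC tables, with sums of 8937 to 12656 per library. Of these markers 9 were also listed for tumours, with sums of 8733 to 23199 on a separate scaling. These sums therefore do not set the HSC libraries apart from the tumours. At week 12 the skeletal muscle markers summed to 57800 to 124646 in sedentary tumours and 317 to 1397 in active ones. Active replicate 3 of that week held far more T cell, B cell and adipocyte RNA than any other tumour, with sums of 13210, 19284 and 319600. In the HSC tables, active replicate 2 is deposited in 2 versions that differ at 13086 of 13380 shared genes. The neutrophil markers summed to 54366 in one version and 4949 in the other. The other 2 active HSC libraries differ between the tables at 4 genes.

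The enzymes of glycolysis had the highest levels of the 38 genes. Per kilobase of exon, the median value over the 12 tumours was highest for Gapdh (17147), Ldha (15466), Pkm (13860), Eno1 (12576) and Aldoa (8917). In 4 pairs of related genes 1 form was far above the other. Slc2a1, the broadly expressed glucose transporter, stood at 616 per kilobase and Slc2a3, its high-affinity relative, at 12.0. Hk1 stood at 2229 and Hk2 at 205. The liver-type phosphofructokinase Pfkl stood at 3382 and the platelet-type Pfkp at 736. Eno1 stood at 12576 and the neuronal enolase Eno2 at 13.6. Lowest after Slc2a3 and Eno2 were Ankrd37 (34.6) and Slc16a3 (39.5), so the 2 genes with the widest differences below were also among the scarcest. In sedentary HSC Slc2a1 had 962 ± 48.8 per kilobase and Slc2a3 495 ± 167 (SD, n = 3), and Hk1 had 1917 ± 272 against 1063 ± 117 for Hk2. In these 2 pairs the minor form was less far below the major one than in tumours. Eno1 and Eno2 were farther apart in sedentary HSC, at 19282 ± 2473 and 1.90 ± 0.75 (SD, n = 3). HSC values were scaled apart from those of the tumours. Aldoc stood at 3094 per kilobase in tumours and 23.7 ± 14.2 (SD, n = 3) in sedentary HSC.

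Several of these genes have near copies elsewhere in the genome, and how reads shared between copies were counted is not given in the sources used here. Of the 50-base windows in the transcripts, 82.5% of those of Gapdh, 72.2% of Eno1, 68.0% of Pgk1, 41.5% of Pgam1 and 34.4% of Pkm recur in another gene. Smaller shares recur for Bnip3l (23.4%), Bnip3 (21.9%), Gpi1 (19.3%), Ldha (16.6%) and Aldoa (13.5%), and 7.51% each for Tpi1 and Higd1a. The values of all these genes are uncertain to that extent. Slc16a3, Hk2 and Ankrd37 shared no window. Exons of Bnip3, Ankrd37, Higd1a and Ndrg1 overlap a gene on the opposite strand over 27.2%, 26.2%, 22.5% and 19.2% of their length. The libraries were made with a stranded kit, and whether the counting used strand is not given in the sources used here.

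At week 18, 36 of the 38 genes were higher in tumours of active mice than in those of sedentary mice, where 51.1% of all genes were. The median log2 difference was 0.60, beside 0.01 over all 18939 genes tested. None of the differences passed the test (limma, Benjamini-Hochberg adjusted over all genes), in which 0 of all genes passed (0.0%). edgeR called none of the 38 either, with 16 at an unadjusted p under 0.05 beside 5.89% of all genes. DESeq2 called 2, Pgk1 and Ankrd37, beside 0.275% of all genes, and had 20 at an unadjusted p under 0.05 beside 7.27%. At an unadjusted limma p under 0.05 there were 12 of the 38, all higher, a direction and threshold that 1.57% of all genes reached. For 11 of the 38, every active tumour was above every sedentary one, as for 6.03% of all genes. Eno2 (-0.73) and Pfkfb3 (-0.08) were the 2 on the other side.

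Glucose enters through Slc2a1, which was at 1305, 1981 and 2089 in sedentary and at 4843, 1988 and 4039 in active tumours. Active replicates 1 and 3 were well above the sedentary tumours and replicate 2 lay among them (log2 difference 0.95). Slc2a3 overlapped between the groups, at 18.2, 57.7 and 60.5 against 107, 34.1 and 25.0. The largest difference was that of Slc16a3, the lactate exporter of glycolytic cells. Its normalized value was 20.1, 127 and 162 in the sedentary tumours and 1202, 249 and 511 in the active ones. The groups did not overlap, sedentary replicate 1 lay far below its group and active replicate 1 far above. The log2 difference was 2.82 with a standard error of 0.98 (limma Benjamini-Hochberg adjusted p = 0.824), and it ranged from 1.89 to 3.37 when each tumour in turn was left out. Pdk1, the kinase that keeps pyruvate out of the mitochondria, had 2688, 2428 and 2300 against 2907, 3632 and 3718. That is a small shift of 0.46 without overlap. Pfkfb4, an activator of phosphofructokinase, overlapped between the groups at 68.0, 174 and 136 against 146, 143 and 145.

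Ankrd37 had the smallest p of the 38. It stood at 22.0, 30.4 and 33.7 in sedentary and at 161, 75.2 and 135 in active tumours, with a log2 difference of 2.02 ± 0.34 (SE, n = 3 each, limma adjusted p = 0.547). The lowest active tumour was well above the highest sedentary one. Higd1a, a mitochondrial protein of the hypoxia response, was at 448, 457 and 416 against 1286, 606 and 823, a difference of 0.97. The sedentary values lay close together and the active values were spread, with replicate 1 highest. Bnip3l, a receptor that has mitochondria removed by autophagy, was at 2424, 2703 and 2436 against 3991, 3037 and 3403, a difference of 0.46. Its close relative Bnip3 overlapped between the groups, at 605, 706 and 401 against 1867, 583 and 1292.

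Among the enzymes, those that carry triose phosphate to phosphoglycerate stood apart without overlap. Pgk1 was at 3546, 4950 and 6496 in sedentary and at 19494, 7927 and 15430 in active tumours, a log2 difference of 1.46 ± 0.42 (SE, n = 3 each, limma adjusted p = 0.824). Tpi1, which interconverts the triose phosphates, had 7621, 6690 and 7283 against 16190, 9738 and 14737, a difference of 0.88. Gapdh had 23859, 21601 and 25050 against 66729, 29048 and 43035, a difference of 0.90. In each of these 3 enzymes active replicate 2 was the lowest of its group and the sedentary tumours clustered below it. Pgam1 had 5530, 4978 and 5678 against 12452, 6604 and 10443, a difference of 0.82. Hk2 and Gpi1, the first enzymes of the pathway, showed smaller steps of 0.61 and 0.51. Hk2 was at 684, 935 and 911 against 1165, 1293 and 1374, the one enzyme in which active replicate 1 was the lowest of its group. Gpi1 was at 8363, 7905 and 8295 against 13312, 9673 and 12386. Ldha, which makes the lactate that Slc16a3 exports, had 14979, 30295 and 32649 against 44507, 27765 and 42618, so active replicate 2 lay below 2 of the sedentary tumours. Differences of the 8 enzymes that overlapped and lay above 0 ranged from 0.23 (Aldoc) to 0.81 (Pfkp), and none had an unadjusted limma p under 0.05.

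Of the 8 widest differences 5 came with overlapping groups, those of Bnip3, Ndrg1, Adm, Vegfa and Egln3, and active replicate 1 was the highest tumour for each. Ndrg1, a stress-response gene, was at 932, 4233 and 3927 in sedentary and at 21612, 3658 and 4400 in active tumours. Only active replicate 1 was above the sedentary range by more than a small margin, and the log2 difference of 1.5 was 0.69 without that tumour. Adm, the vasodilator adrenomedullin, was at 78.5, 126 and 111 against 693, 65.6 and 211, and Vegfa, the main angiogenic ligand, was at 1038, 1479 and 1620 against 5731, 1593 and 2239. Both had their highest value in active replicate 1, and active replicate 2 lay within or below the sedentary values. Egln3, the HIF-induced prolyl hydroxylase that feeds back on HIF, was at 5066, 2944 and 4536 against 14283, 4990 and 10805 (1.17). Car9, the membrane carbonic anhydrase used as a marker of hypoxia, differed by 0.16. Egln1, the prolyl hydroxylase that sets the level of HIF alpha in normal oxygen, had 818, 1098 and 1237 against 2287, 1144 and 1550 (0.62). The collagen prolyl hydroxylases P4ha1 and P4ha2 differed by 0.76 and 0.19, and the mTOR inhibitor Ddit4 by 0.49. The smallest differences among the other targets were those of Kdm3a (0.08), a histone demethylase, and Mxi1 (0.15), an antagonist of Myc. Hif1a differed by 0.34, at 3297, 3413 and 2720 against 3591, 2915 and 5905.

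**Figure D1:**
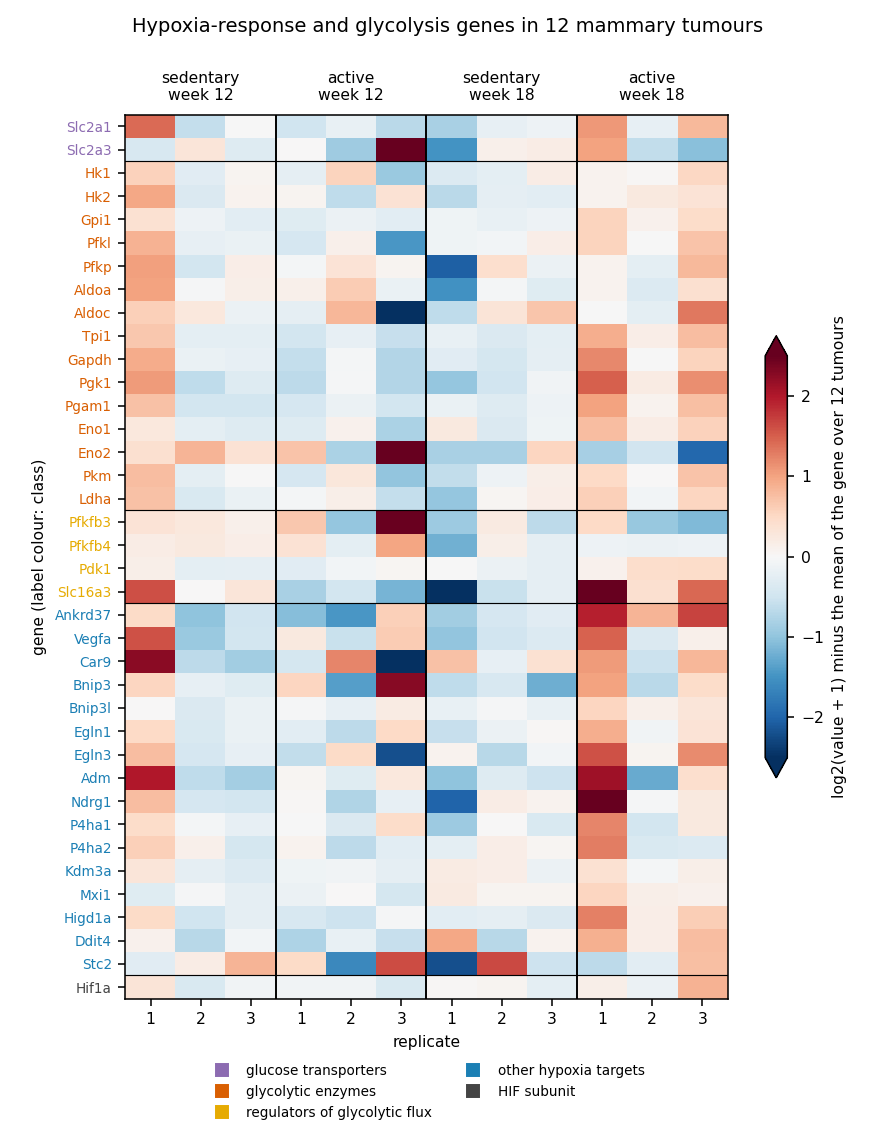
Heat map of log2(value + 1) minus the mean of the gene over the 12 tumours, with 1 row per gene ordered by class and 1 column per tumour. Active replicates 1 and 3 of week 18 and sedentary replicate 1 of week 12 are the columns with the highest medians, at 0.82, 0.53 and 0.58.

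The 3 active tumours of week 18 were not alike. Relative to the mean of each gene over the 6 tumours of that week, the median of the 38 genes was 0.63 in active replicate 1, -0.12 in replicate 2 and 0.44 in replicate 3, and -0.44, -0.23 and -0.24 in the sedentary replicates 1, 2 and 3. Replicate 1 held the highest value of 25 of the 38 genes and replicate 3 of 9. Sedentary replicate 1 held the lowest value of 20. Leaving out 1 tumour at a time gave medians of 0.46 to 0.77. The number at an unadjusted limma p under 0.05 was 18 without active replicate 2, 4 without active replicate 3, 6 without active replicate 1, and 7, 6 and 5 without the sedentary replicates 1, 2 and 3. Shares of all genes in these fits are not given here, so whether the 38 genes moved more than others cannot be read from these counts.

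Markers of other cells moved along with the genes at week 18. The 8 adipocyte markers summed to 1059, 25588 and 14904 in sedentary and 640, 3605 and 2998 in active tumours, and all 8 had a lower mean in the active group (median log2 difference -1.81). The 7 fibroblast markers were also lower in 7 of 7 (median -0.82), with the smallest sum, 14577, in active replicate 1. Markers of cycling cells were higher in 8 of 8 (median 0.57), with the highest sum, 32435, again in active replicate 1. Of 7 listed neutrophil markers 6 were higher (median 1.18). None of these markers passed the limma test, none was at 0 in every tumour of a group, and their part in the result was not tested. The 8 epithelial markers had a median difference of 0.14.

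**Figure D2:**
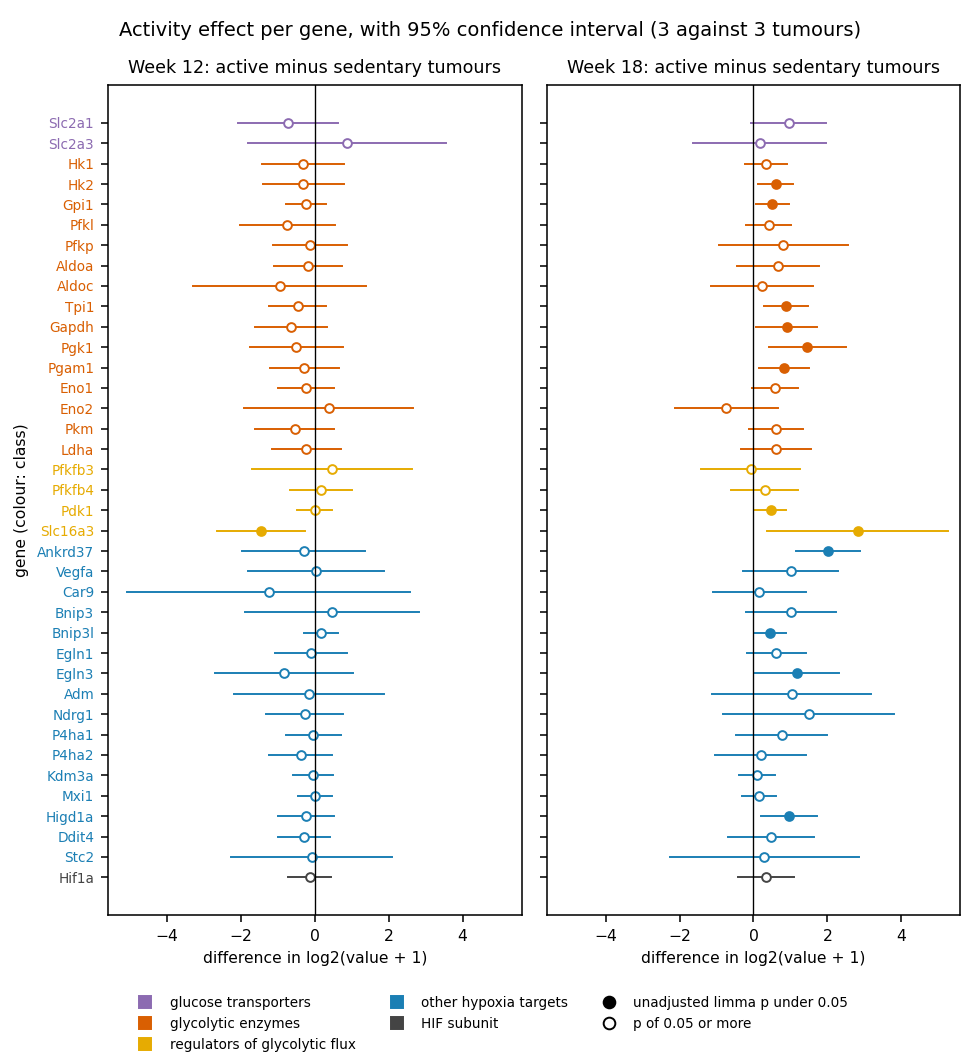
Difference in log2(value + 1) between active and sedentary tumours for each of the 38 genes at week 12 (left) and week 18 (right), with 95% confidence intervals from limma; filled points have an unadjusted p under 0.05. At week 18 the filled points are 12 genes above 0, and at week 12 the single filled point is Slc16a3, below 0.

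At week 12 the direction was the opposite and smaller: 30 of the 38 genes were lower in active tumours and 8 higher, where 51.7% of all genes were higher, with a median of -0.23 beside 0.01 over 19162 genes. None of the 38 passed the test with limma, edgeR or DESeq2, each with 1 gene at an unadjusted p under 0.05, in a comparison in which limma called 0.517% of all genes. In limma this gene was Slc16a3, in a direction and at a threshold that 2.49% of all genes reached. It was also the only one of the 38 with every active tumour below every sedentary one, as for 4.78% of all genes. It was at 578, 190 and 233 in sedentary and at 107, 137 and 83.6 in active tumours, a log2 difference of -1.45 ± 0.47 (SE, n = 3 each, limma adjusted p = 0.970). So the gene with the widest difference at week 18 also had the widest at week 12, with the other sign.

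The next widest differences at week 12 had overlapping groups and a wide spread. Car9 was at 2460, 325 and 282 in sedentary and at 380, 1191 and 36.8 in active tumours. Egln3 was at 8060, 3525 and 4132 against 3115, 6582 and 1027, and Aldoc, the brain-type aldolase, at 12618, 10111 and 7603 against 7148, 14983 and 1248. In these 3 genes active replicate 3, the tumour rich in lymphocyte and adipocyte RNA, was the lowest of the 6. Pfkl behaved alike, at 23539, 11189 and 11588 against 9683, 14242 and 4738. Slc2a3 was at 39.6, 65.3 and 42.1 against 52.8, 27.8 and 467, with active replicate 3 now the highest. The same tumour was the highest in Bnip3 (4505), Pfkfb3 (8593) and Eno2 (273).

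Sedentary replicate 1 held the highest value of 26 of the 38 genes at week 12. Without it the median was 0.05 and 22 of 38 genes were above 0, so the direction of the week 12 comparison turned on this tumour. Its skeletal muscle marker sum was the highest of the 12 tumours at 124646, and its mammary epithelium sum of 104262 lay within the range of the other tumours. The part of muscle RNA in these values was not tested.

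The activity effect of week 18 minus that of week 12 was above 0 for 35 of the 38 genes, beside 48.5% of all genes, with a median of 0.85 beside -0.02 over 19241 genes. In this 12-tumour limma fit 0 of the 38 passed the adjusted threshold, as did 2 genes of all (0.0104%). edgeR called none of the 38, with 10 at an unadjusted p under 0.05 beside 8.34% of all genes, and DESeq2 called 2, Slc16a3 and Tpi1, beside 0.894% of all genes. At an unadjusted p under 0.05 there were 9 of the 38, all above 0, beside 2.79% of all genes. The widest was Slc16a3, whose effects differed by 4.27 with a 95% confidence interval of 1.67 to 6.87 (limma adjusted p = 0.456). Ankrd37 followed with 2.32 ± 0.79 (SE), Pgk1 with 1.97 ± 0.69 and Slc2a1 with 1.67 ± 0.71. Gapdh, Tpi1, Higd1a, Pgam1 and Gpi1 completed the 9, at 1.55, 1.35, 1.20, 1.10 and 0.75.

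**Figure D3:**
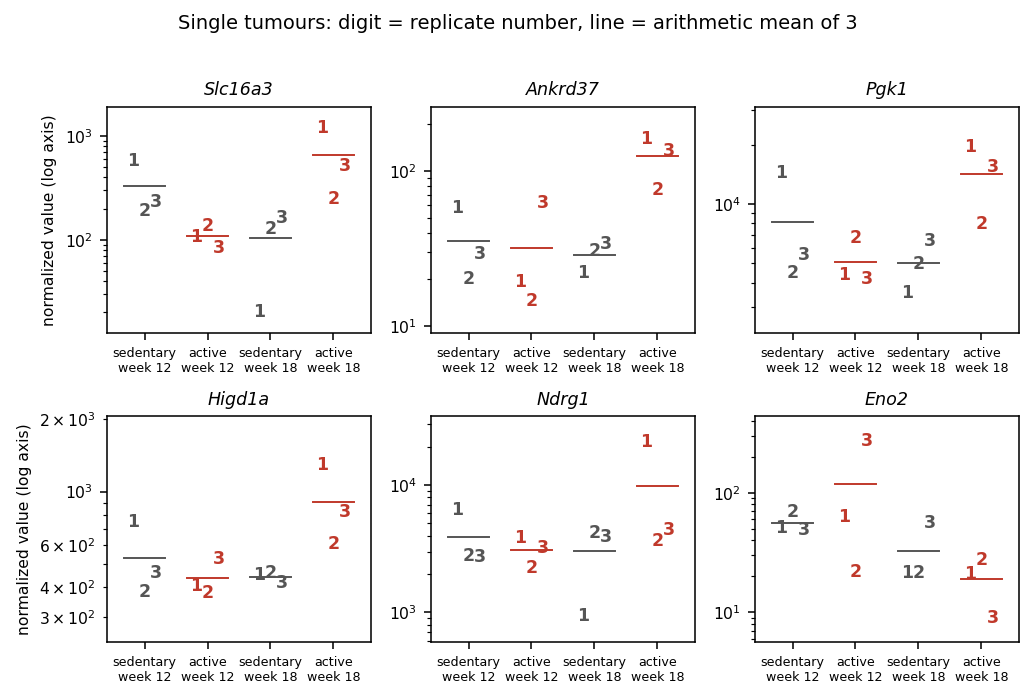
Normalized value of 6 genes in each of the 12 tumours, on log axes, with the replicate number as the symbol and the arithmetic mean of 3 tumours as a line. In Slc16a3 the active tumours lie below the sedentary ones at week 12 and above them at week 18, and in Ndrg1 active replicate 1 of week 18 stands alone at 21612.

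Seen by activity group, the genes were mostly lower at week 18 than at week 12 in sedentary mice and mostly higher in active mice. These comparisons reuse the tumours above and are given side by side only. In sedentary mice 32 of 38 were lower and 6 higher, where 47% of all genes were higher, with a median of -0.29. Slc16a3 (-1.96) and Aldoa (-1.0) had an unadjusted limma p under 0.05, which 2.59% of all genes reached in that direction. Without sedentary replicate 1 of week 12 that median was 0.03. In active mice 31 of 38 were higher, where 47.5% of all genes were, with a median of 0.50. Here 14 were higher at an unadjusted limma p under 0.05, beside 6.78% of all genes, led by Slc16a3 (2.31) and Ankrd37 (2.14). Eno2 was lower (-2.01), as were 11.0% of all genes at that threshold. None of the 38 passed the adjusted limma threshold in either group, 1 gene of all did in sedentary (0.0052%) and 3 did in active mice (0.0156%), and edgeR called none of the 38. DESeq2 called 0 of the 38 in sedentary mice and 10 in active mice, beside 0.411% and 8.74% of all genes. The week stands for age, tumour stage and time of collection alike, which cannot be told apart.

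The glycolytic enzymes and the other hypoxia targets gave near-equal medians in the group comparisons of the tumours. At week 18, 14 of 15 enzymes and 16 of 16 other targets were higher in active mice, with medians of 0.61 and 0.69. At week 12, 14 of 15 and 13 of 16 were lower, with medians of -0.31 and -0.14. For the difference of effects the medians were 0.94 and 0.79. The median of the targets minus that of the enzymes was 0.08, 0.17 and -0.15, and over the fits without 1 tumour it ranged from -0.19 to 0.27, from -0.05 to 0.42 and from -0.52 to 0.35, so its sign depended on single tumours in all 3 comparisons. The wide differences sat in both classes as well. Pgk1 led the enzymes and Ankrd37 the other targets at week 18. The 2 classes had 6 of 15 and 4 of 16 members at an unadjusted limma p under 0.05 at that week. All of these were higher, as were 1.57% of all genes at that threshold.

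Single tumours separated the classes more than the groups did. In active replicate 3 of week 12 the enzymes had a median of -0.51 relative to the mean of the 6 tumours of that week, the lowest of the 6, and the other targets 0.17. This tumour held the lowest value of 11 of the 15 enzymes and the highest of 6 of the 16 other targets. In active replicate 2 of that week the order was reversed, with 0.19 for the enzymes and -0.40 for the other targets. In active replicate 1 of week 18 the other targets stood at 1.13 and held the highest value of 14 of 16, and the enzymes stood at 0.40. In active replicate 3 of week 18 the enzymes stood at 0.50 and the other targets at 0.35.

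**Figure D4:**
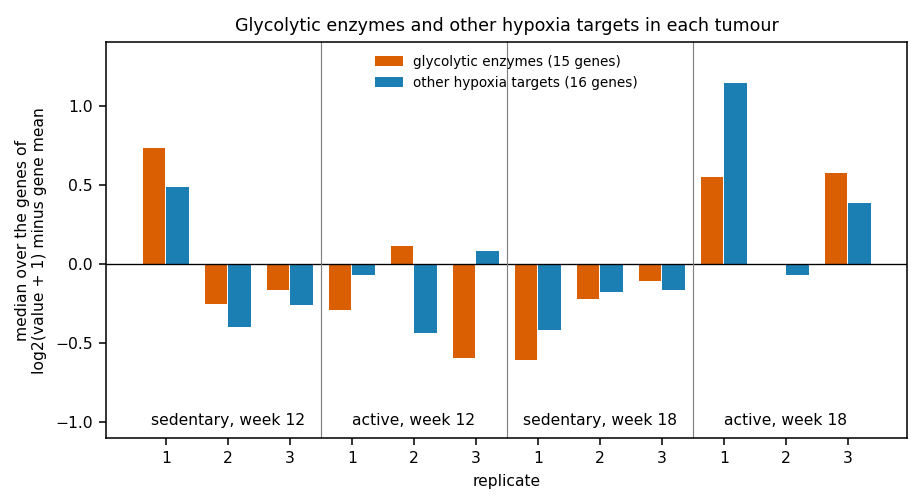
Median over the 15 glycolytic enzymes (orange) and the 16 other hypoxia targets (blue) of log2(value + 1) minus the mean of each gene over all 12 tumours, with 1 pair of bars per tumour. The bars of a pair share their sign in 9 tumours and differ in active replicates 2 and 3 of week 12 and in active replicate 2 of week 18, where both are near 0.

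Further hypoxia targets from a second list of 24 genes gave 18 above 0 at week 18, with a median of 0.44. None passed the adjusted limma threshold. Apln and Fam162a were among those with an unadjusted limma p under 0.05 and no overlap. Apln, a ligand of vascular growth, was at 220, 376 and 465 in sedentary and at 1958, 752 and 891 in active tumours (1.69). Fam162a, a mitochondrial protein of the hypoxia response, was at 726, 474 and 530 against 1369, 789 and 1260 (0.97). The 7 HIF subunits and regulators had a median of 0.09. Among the 17 listed further glycolysis genes 8 were above 0, with a median of -0.06. Tigar, which lowers fructose bisphosphate, was higher without overlap (0.61), and the muscle-type fructose bisphosphatase Fbp2 was lower without overlap (-1.35).

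In HSC, the comparison of transplanted with sedentary mice had members of the list past the threshold. All 37 genes tested were higher in the transplant group, where 50% of all genes were, with a median log2 difference of 0.68 beside 0.00. The adjusted limma threshold was passed by 18, all higher, as by 7.94% of all 13329 genes in that direction and 11.7% in either. With replicates 1 and 2 only, which are of like depth, 8 of the 37 passed, beside 14.7% of all genes. With the replicate number as a block in the fit of all libraries, 2 of the 37 passed, beside 0.713% of all genes. For 31 of 37 the groups did not overlap, with the transplant group above, as for 20.3% of all genes. Reads of the 2 tables were joined and scaled together for this comparison, since no table holds both groups.

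Slc16a3 again had the widest difference. It was at 958, 571 and 1171 in sedentary and at 10331, 5970 and 7536 in transplant HSC, a log2 difference of 3.17 ± 0.33 (SE, n = 3 each, limma adjusted p = 0.0102), and it passed the threshold in 15 of 15 alternatives. Pfkfb4 was at 171, 163 and 187 against 524, 464 and 448, with tight values in both groups and the smallest adjusted p of the list (1.46 ± 0.12, limma adjusted p = 0.00702, past the threshold in 14 of 15 alternatives). Pdk1 was at 3118, 2814 and 3024 against 5142, 4098 and 5212 (0.68, limma adjusted p = 0.0347, past the threshold in 7 of 15). All 3 regulate where pyruvate and lactate go or how fast hexose enters the pathway, and Pfkfb3, the fourth regulator, differed by 0.26 without passing.

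Of the 15 other hypoxia targets tested 9 passed. Bnip3 was at 830, 511 and 626 in sedentary and at 3963, 2162 and 3947 in transplant HSC, a difference of 2.33 ± 0.31 (SE, n = 3 each, limma adjusted p = 0.0150). Bnip3l, at 1484, 1472 and 1794 against 5136, 3540 and 3640, differed by 1.36, so both mitophagy receptors were higher. Ankrd37 was at 61.7, 50.8 and 27.3 against 198, 166 and 131 (1.86). Ddit4 was at 528, 518 and 403 against 1054, 922 and 1145 (1.11). Vegfa was at 726, 749 and 732 against 1559, 1108 and 1859 (1.00). In these 5 genes the lowest transplant library was above the highest sedentary one. P4ha1 and P4ha2 differed by 0.90 and 2.39, and P4ha2 rose from 16.2, 28.0 and 22.3 to 265, 61.9 and 98.9. Mxi1 and Kdm3a differed by 0.96 and 0.88. Car9 and Higd1a differed by 0.21 and 0.31 with overlap.

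Of the 15 glycolytic enzymes 5 passed, with smaller differences. Eno1 was at 51974, 41872 and 53434 in sedentary and at 106508, 83231 and 83680 in transplant HSC (0.89 ± 0.16, SE, n = 3 each, limma adjusted p = 0.0285, past the threshold in 9 of 15 alternatives). Gpi1 was at 27246, 23340 and 26056 against 50495, 42124 and 44798 (0.84). Aldoa, Pfkl and Pfkp followed with 0.63, 0.63 and 0.62. Slc2a1 was the eighteenth gene past the threshold, at 3134, 2977 and 3295 against 4572, 4457 and 4873 (0.56). Ldha, Hk2 and Eno2 overlapped between the groups, Ldha with 61302, 52734 and 51427 against 72540, 58247 and 58214. Eno2 stood at values of 3.25 to 8.41, a few reads per library. Aldoc missed the threshold with a difference of 2.93 (adjusted p = 0.0519), from 39.0, 54.3 and 118 to 1253, 372 and 249. The medians were 0.62 for the enzymes and 0.90 for the other targets, and this gap was not tested.

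**Figure D5:**
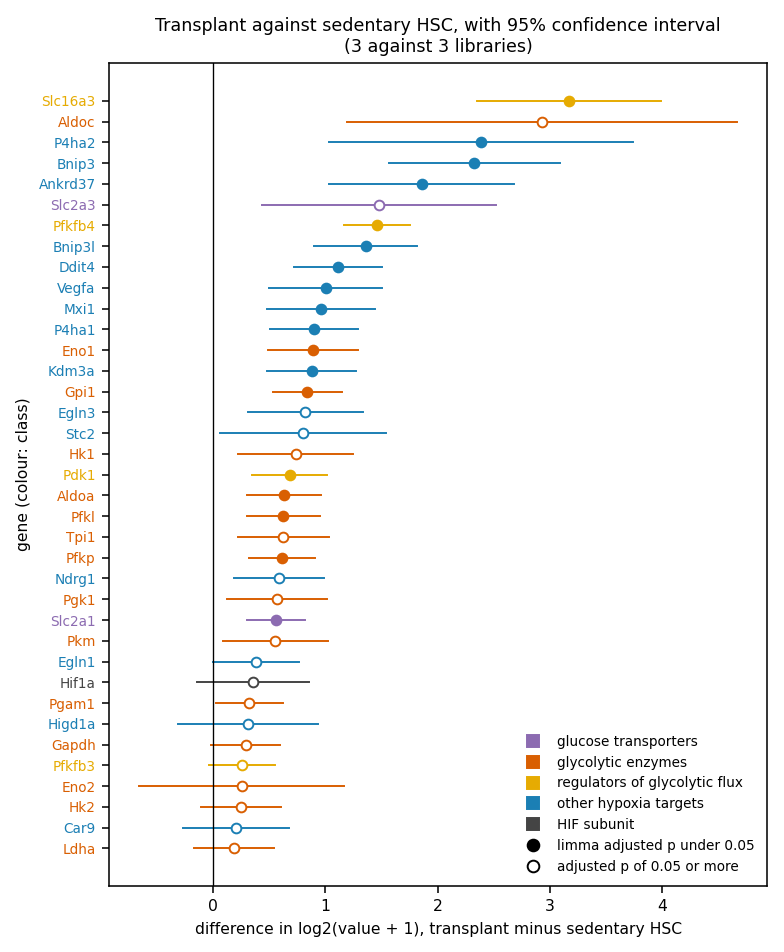
Difference in log2(value + 1) between HSC of transplanted and sedentary mice for 37 genes, ordered by size, with 95% confidence intervals from limma; filled points have an adjusted p under 0.05. All 37 estimates lie above 0, with Slc16a3 at 3.17 and Ldha lowest at 0.19.

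The number of genes past the threshold depended on single libraries, whereas 36 or 37 of the 37 stayed above 0 without any one of them. Without sedentary replicate 1 or 2 there were 3 and 2 genes past it, without transplant replicate 1 or 2 there were 4 and 4, and without replicate 3 of either group 13 and 14. Calls among all genes moved as well, from 1553 to between 236 and 1674 in these fits. The median stayed between 0.59 and 0.75. Markers of other blood cells moved with the group. The 7 megakaryocyte markers were higher in 7 of 7 (median 3.33, 6 past the threshold), with sums of 4569 to 8395 in sedentary and 15274 to 43376 in transplant HSC. The neutrophil sums were 4679 to 5525 against 16047 to 21454, and of the 10 HSC markers 3 passed as lower and 1 as higher. Their part in the difference was not tested.

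The second list of hypoxia targets moved along in HSC: 20 of 23 tested were above 0, beside 50% of all genes, and 9 passed the limma threshold, all higher, beside 7.94%. Apln was at 26.0, 21 and 21.3 in sedentary and at 185, 148 and 230 in transplant HSC (2.97, adjusted p = 0.00516). Selenbp1, a selenium-binding protein, was at 175, 96.3 and 150 against 1215, 759 and 1108 (2.88). Plod1, a lysyl hydroxylase of collagen, was at 458, 389 and 586 against 1835, 1872 and 869 (1.61). Ccng2, Ero1l, Gys1, Bhlhe40 and Gbe1 were also among those past the threshold. Of 7 HIF subunits and regulators Cited2, which competes with HIF for its coactivator, passed (0.86). Of 14 further glycolysis genes Hk3, the hexokinase of myeloid cells, passed (1.29), and of 9 genes of the integrated stress response Atf3 passed (1.48). These single calls stand beside 11.7% of all genes past the threshold in either direction, so they do not set these lists apart.

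Active HSC were compared with each of the other groups in turn. The 2 comparisons used different versions of active replicate 2, so they give no common order of the groups. Against sedentary HSC 33 of 37 genes were higher, where 50.5% of all genes were, with a median of 0.32, and none passed the threshold with limma, as none of all genes did (0.0%). edgeR called none of the 37, with 11 at an unadjusted p under 0.05 beside 12.7% of all genes, and DESeq2 called 2, beside 2.03%. At an unadjusted limma p under 0.05 there were 9, all higher, beside 6.7% of all genes in that direction, and 14 did not overlap, beside 10.4%. Slc16a3 was at 878, 524 and 1069 in sedentary and at 7146, 1989 and 2187 in active HSC (1.99). Bnip3l was at 1361, 1351 and 1637 against 2672, 2833 and 1817 (0.73), Mxi1 at 627, 538 and 721 against 1108, 1302 and 772 (0.73), and Kdm3a at 1139, 1165 and 1456 against 2242, 1549 and 1881 (0.59). In all 4 the groups did not overlap, with active replicate 2 in the first of its 2 versions. Active replicate 1 held the highest value of 27 of the 37 genes, and without it the median was 0.12 and 24 genes were above 0. The 7 megakaryocyte and the 7 neutrophil markers listed were all higher in the active group, and none passed the limma test. Megakaryocyte sums were 8474 to 45834 in active and 4189 to 7663 in sedentary HSC, and neutrophil sums 5352 to 54366 and 4271 to 5073. Both upper ends were active replicate 2 in its first version. In the other version, scaled with transplant HSC, that library summed to 7274 and 4949. Active replicates 1 and 3 had 8474 and 10597 for megakaryocytes and 10094 and 5352 for neutrophils. The part of these markers in the difference was not tested.

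Active replicate 2 entered these values in the first of its 2 versions. Slc16a3 is at 1989 in that version and at 556 in the other, and Pfkfb4 at 744 and 180. In the other version Bnip3l is at 1661, Mxi1 at 703 and Kdm3a at 1421. Sedentary values scaled with transplant HSC were 571 to 1171 for Slc16a3 and 1472 to 1794 for Bnip3l. They were 586 to 790 for Mxi1 and 1242 to 1595 for Kdm3a. Beside these values the other version left the groups overlapping in each of these genes. With the other version 35 of 37 genes were above 0 with a median of 0.28, and 0 had an unadjusted limma p under 0.05. The direction of the list was thus shared by both versions. The single-gene p-values and the lack of overlap in Slc16a3, Bnip3l, Mxi1 and Kdm3a were not.

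Against active HSC, transplant HSC were higher in 36 of 38 genes, again beside 50% of all genes, with a median of 0.40. None passed the limma threshold, beside 0.0513% of all genes, edgeR called none, with 8 at an unadjusted p under 0.05 beside 20.2% of all genes, and DESeq2 called 4, beside 8.32%. At an unadjusted limma p under 0.05 there were 6 genes, all higher, beside 10.5% of all genes in that direction. The groups of 6 did not overlap, beside 13.1% of all genes. Deviations of samples that share a replicate number correlated at 0.105, 0.116 and 0.318. No label pairs these samples, and replicate 3 is the deeper library of each group, so for it pairing and depth cannot be told apart. With the replicate block 12 of the 38 had an unadjusted limma p under 0.05, beside 20.8% of all genes. None passed the adjusted threshold in that fit. Pfkfb4 was at 357, 180 and 214 in active and at 525, 465 and 448 in transplant HSC (0.99), and Bnip3l at 2910, 1661 and 2014 against 5141, 3545 and 3640 (0.92). Gpi1 and Slc2a3 differed by 0.56 and 1.06, and in these 4 genes the groups did not overlap. Active replicate 2 was the lowest library for 32 of the 38 genes, and without it the median was 0.24 with 34 above 0. Neutrophil sums were 16073 to 21455 in transplant and 4949 to 10996 in active HSC, megakaryocyte sums 15274 to 43415 and 7274 to 11743, and their part was not tested. This comparison shares its active libraries with the one against sedentary HSC. Adm, listed only in this table, was at 5.93, 1.34 and 2.48 against 4.21, 0 and 4.06, which is at or near the floor of 3 reads.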

How the data were processed

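Per the labels' protocols, TRIzol served for tumour RNA, small columns for RNA of freshly sorted HSC, and a stranded kit for mRNA libraries. The genome build was mm10 per the submitters' processing notes, and DEBrowser is named in the labels. The aligner, the counter and whether counting used strand are not given in the sources used here. The deposited value per gene and library is a signal, the read count divided by 1 factor per library. Counts were recovered from it, and 100% of values came out whole within 0.02. Tumour values of both weeks share one scaling. The authors' p-value, −log10 of the adjusted p, log2 fold change, linear fold ratio and test statistic (score), all deposited, were read and not used for any result here. Across all genes, 204, 41, 223 and 1080 have the authors' deposited adjusted p under 0.05 (week 12, week 18, active HSC, transplant HSC).

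The main test was limma 3.58.1 in R 4.3.3 on log2(value + 1), for which a gene needed a group mean of 1 or more, with Benjamini-Hochberg adjustment over all genes and a threshold of 0.05. Fold changes are on that scale, which understates those of low genes. Each comparison was fitted on its own libraries, except the difference of activity effects and the comparisons of weeks, which used all 12 tumours. edgeR 4.0.16 and DESeq2 1.42.0 were run on the recovered reads as alternatives, beside another pseudocount, other filters, other variance models, a replicate block and each library left out. On week 18 tumours edgeR called 0 genes and DESeq2 52. For HSC of transplanted against sedentary mice, reads of the 2 tables were joined and rescaled. The HSC tables each hold 21 symbols turned into dates, which were kept out of named genes.

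The 38 genes and the other lists were chosen with earlier results of these data known. Values per library are given for members past the threshold in a tumour comparison, for those with an unadjusted p under 0.05 and no overlap between active and sedentary tumours, and for the 8 (week 18) and 6 (week 12) widest differences at a mean of at least 50. In HSC they are given for most members past the threshold or with the 4 smallest p-values. For transplant against sedentary HSC, only log2 differences are given for Aldoa, Pfkl, Pfkp, P4ha1, Mxi1 and Kdm3a. The same holds for Gpi1 and Slc2a3 in transplant against active HSC. For pathway genes the 3 smallest p-values of a list at week 18 and those past the threshold could be named. Other values were chosen after they were seen. One further pathway gene that the rule names is not reported here.

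The fitting code was tested on simulated data with known changes. Of genes changed by 1 on the log2 scale, limma called 0% at week 12, 0% at week 18 and 27% in transplant against sedentary HSC. Of genes changed by 3, it called 66%, 81% and 94%. Tumour differences near 1 would thus mostly be missed. No label pairs the samples of different groups. Deviations of samples that share a replicate number correlated above 0.1 in each pair in week 18 tumours (0.164, 0.159 and 0.139). The same held in transplant against active HSC (0.105, 0.116 and 0.318), where replicate 3 is also the deeper library of each group.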

Additional observations from a re-analysis of the deposited data

Results flagged for a closer look

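The effect of activity on Slc16a3, the lactate exporter, differed between week 12 and week 18 by 4.27 on the log2 scale. It was singled out as the widest such difference of the list. The interaction term of the 12-tumour fit gave a 95% confidence interval of 1.67 to 6.87, which is not adjusted for picking the widest gene. The active tumours were lower than the sedentary ones at week 12 (-1.45) and higher at week 18 (2.82), with no overlap at either week. After Benjamini-Hochberg adjustment over all genes the limma p was 0.456, so the difference did not pass the threshold, while DESeq2 called it.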

How the results depend on the processing

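In none of the alternatives run did a called value change sign. Apart from the fits without 1 library, the median of the 38 genes and the gap between the 2 class medians moved by less than the spread between samples. Leaving out single tumours changed the sign of the week 12 median and of the gap in the comparisons by activity. With 3 samples per group, a missed threshold does not show that values were alike. Leaving out 1 library at a time gave medians of -0.45 to 0.05 at week 12, 0.46 to 0.77 at week 18 and 0.55 to 1.06 for the difference of effects, and 0 of the 38 genes past the threshold in each. The causes of the shifts below were not tested.

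Counts of all genes past the threshold moved more. At week 12, 99 became 208 with DESeq2, 9 in the fit of all 12 tumours and 9 to 71 without 1 tumour. At week 18, 0 became 5 with a pseudocount of 0.1, 1 with no filter, 52 with DESeq2 (2 of the 38) and 0 to 5 without 1 tumour. For the difference of effects, 2 became 0 with edgeR, 172 with DESeq2 (2 of the 38), 0 with trend and robust variances and 0 to 23 without 1 tumour. In sedentary tumours across weeks, 1 became 0 with edgeR, 79 with DESeq2, 0 with trend and robust variances and 1 to 9 without 1 tumour. In active tumours, 3 became 6 with a pseudocount of 0.1, 0 with edgeR, 1681 with DESeq2 (10 of the 38), 0 with trend and robust variances and 0 to 87 without 1 tumour.

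In active against sedentary HSC, 0 became 1 with a pseudocount of 0.1 and 274 with DESeq2 (2 of the 37), and stayed 0 without any 1 library. In transplant against active HSC, 7 became 1 with edgeR, 1134 with DESeq2 (4 of the 38), 34 with trend and robust variances, 0 with replicates 1 and 2 only, 1 with the other version of active replicate 2 and 0 to 79 without 1 library. In transplant against sedentary HSC, 1553 became 2566 with edgeR, 3167 with DESeq2, 2770 with trend and robust variances and 236 to 1674 without 1 library. The 18 members past it became 28 with DESeq2, 8 with replicates 1 and 2 only and 2 to 14 without 1 library.

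The replicate block gave 0 genes at week 12, 69 for the difference of effects and 0 in active tumours across weeks. It gave 0 in transplant against active HSC and 95 in transplant against sedentary HSC. In that comparison, 2 of the 18 members stayed past the threshold, Slc16a3 and Bnip3. There and at week 12 the deviations of samples with the same number did not correlate above 0.1 in each pair. In week 18 tumours and in transplant against active HSC they did, and limma called no member with or without the block. Members at an unadjusted limma p under 0.05 went from 12 to 10 at week 18 and from 6 to 12 in transplant against active HSC. With the block, 7.41% and 20.8% of all genes reached that p in either direction.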

Other observations

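The muscle-type isozymes of glycolysis, which are not among the 38 genes, were far lower in active than in sedentary tumours at week 12. Pgam2, the muscle phosphoglycerate mutase, was at 1211, 572 and 915 in sedentary and at 19.1, 12.4 and 13.4 in active tumours, a log2 difference of -5.78 (limma, Benjamini-Hochberg adjusted p = 0.00747, n = 3 per group). Eno3, the muscle enolase, was at 3998, 2196 and 2776 against 129, 80.4 and 448. Pfkm, the muscle phosphofructokinase, was at 3667, 2514 and 3165 against 1278, 1732 and 891. Neither passed the adjusted threshold. The 12 skeletal muscle markers were lower in 12 of 12, and 11 passed it. Pgam1, the broadly expressed mutase, differed by -0.28 at the same week. The part of muscle tissue in these values was not tested.

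None of 7 HIF subunits and regulators had an unadjusted limma p under 0.05 between active and sedentary tumours at week 12 or week 18. At week 18 Hif3a differed by 0.94, Cited2 by 0.64, Vhl, which has HIF degraded, by 0.39, Arnt by -0.12, Egln2 by 0.09, Epas1 by 0.07 and Hif1an by -0.04. At week 12 the widest were Hif3a with 1.26, Cited2 with -0.67 and Epas1 with 0.67. Hif3a was at or near the floor of 3 reads at week 18, at 1.91, 0 and 0 in sedentary and 1.04, 1.75 and 2.67 in active tumours. Its week 12 values were also low, at 4.80, 4.22 and 0 against 5.47, 2.06 and 20.1. Active replicate 3 of week 12, rich in lymphocyte and adipocyte RNA, was the highest tumour for Hif3a (20.1) and Epas1 (6961). Of 9 genes of the integrated stress response, which shares inducers with hypoxia, Psat1 differed by 0.77 without overlap, Trib3 by 0.46 and Atf4 by 0.30.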
